A study of Sesbania grandiflora with 21 samples.

Results

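Leaves of Sesbania grandiflora, a legume tree, that carried a combined treatment label were compared between its 2 suffixes. The groups were DS+Y-L, with 3 libraries, and DS+Y-S, with 3 libraries, taken from the sample titles, so that 6 of the 21 libraries of the series entered the comparison. Both groups share the leaf tissue and the combined label DS+Y, and they differ in the suffix L or S. The labels expand none of these letters, and they give no plant age, cultivar, dose or duration. From its title, the study set out to apply drought together with salt. Neither the stress behind DS or Y nor the meaning of L and S could be read from the labels. The other 15 libraries, 3 for each suffix of DS alone, 3 for each suffix of Y alone and 3 of ck, served to estimate the spread and to choose gene lists. Every library was made from polyadenylated RNA of leaves, and whether replicates were different plants is not stated, so p-values measure library-to-library spread that could be technical.

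Drought and salt both lower the water that a leaf can draw on, and salt adds the uptake of sodium and chloride. As textbook background, leaves under either stress make abscisic acid, close their stomata, build up compatible solutes such as proline and sugars, and make proteins that protect membranes and enzymes, while transcripts for photosynthesis and growth often decline. None of these gene groups could be followed here, because the deposited table names 97500 assembled genes only by identifiers of a de novo assembly, with no gene names, descriptions or sequences. The leaf label could likewise not be checked against marker genes. Genes are therefore described below by their level, by their behaviour in libraries outside the comparison, and, for 4 of them, by identifier.

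The 6 libraries held between 17205301 and 18873271 counts, close to each other in depth, but they did not fall into 2 sets of 3. DS+Y-S replicate 1 had counts on 36755 genes, against 49004, 54943 and 57142 in the 3 DS+Y-L libraries, and 57353 and 53196 in DS+Y-S replicates 2 and 3. Of the genes for which the other 15 libraries predict 20 to 40 counts, 33.5% were at 0 in DS+Y-S replicate 1, against 3.75%, 5.76% and 1.21% in the DS+Y-L libraries, and 0.541% and 2.80% in DS+Y-S replicates 2 and 3. The main results below are therefore given with and without that library.

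CPM are counts scaled to a common library total. Correlations of log2 CPM over 38211 genes, which are not independent replicates and which share depth and normalization, described how alike the libraries were. DS+Y-L replicates 1 and 2 were the most similar pair, at r = 0.930. DS+Y-L replicate 3 correlated at 0.886 and 0.870 with replicates 1 and 2 of its own group, and at 0.917 and 0.911 with DS+Y-S replicates 2 and 3. Its 2 closest libraries of the other 20 were Y-L replicates 1 and 3, at 0.950 and 0.941. DS+Y-S replicates 2 and 3 correlated at 0.880 with each other, below the 0.909 and 0.911 that DS+Y-S replicate 3 reached with DS+Y-L replicates 1 and 2. DS+Y-S replicate 1 stood apart from all, at 0.764 to 0.835. Libraries that shared a suffix were thus not consistently more alike than libraries that did not.

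**Figure D1:**
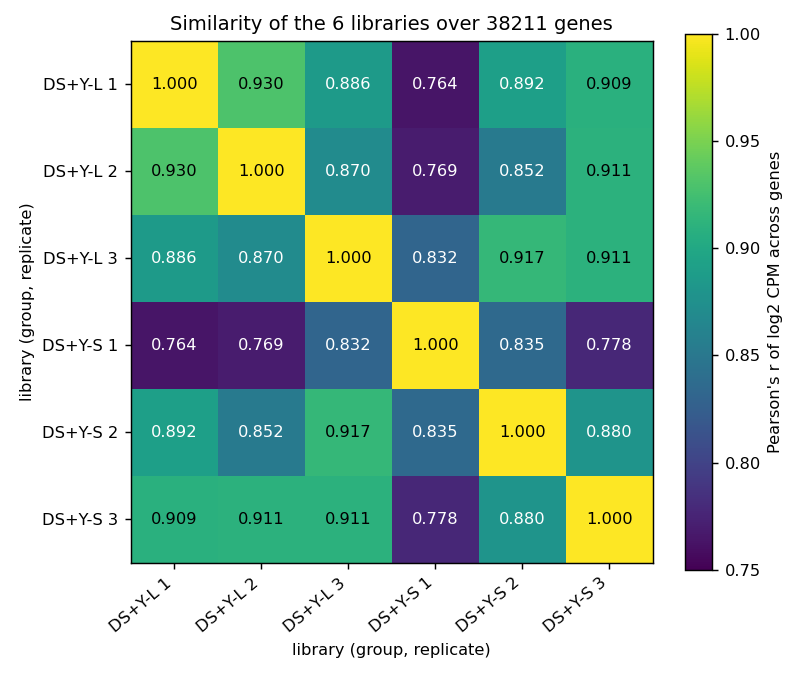
Pearson's r of log2 CPM across 38211 genes for each pair of the 6 libraries, with DS+Y-L replicates above and left of DS+Y-S replicates. DS+Y-L replicates 1 and 2 form the brightest pair at 0.930, DS+Y-S replicate 1 is dark against every other library, and DS+Y-L replicate 3 is brighter against DS+Y-S replicates 2 and 3 than against its own group.

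The comparison of DS+Y-L with DS+Y-S asked which transcripts differ between the suffixes when both treatments are combined. No gene passed the test. edgeR's quasi-likelihood test called 0 of the 38211 genes (0%) at a Benjamini-Hochberg adjusted p under 0.05, with a smallest adjusted p of 0.168. At an unadjusted p under 0.05 there were 4090 genes (10.7%), of which 1612 (4.22%) were higher and 2478 (6.49%) lower in DS+Y-L. Without DS+Y-S replicate 1 the test again called 0 genes (0%), with a smallest adjusted p of 0.484, and 2416 genes (6.32%) passed the unadjusted threshold. limma voom with library weights called 0 genes, with 2678 (7.01%) unadjusted. In leaf RNA a lower level of a transcript can come from fewer cells of a type or from less RNA per cell, and these cannot be told apart.

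The count of 0 rested on DS+Y-L replicate 3. Without that library edgeR called 223 genes (0.584%), of which 147 were higher and 76 lower in DS+Y-L, and without both DS+Y-L replicate 3 and DS+Y-S replicate 1 it called 80 (0.209%), 73 of which were among the 223. Unadjusted, these fits passed 16.7% and 13% of genes. Leaving out any other 1 of the 6 libraries left 0 calls. DESeq2 called 466 genes (1.22%) from the 6 libraries in the same design, 195 higher and 271 lower. At the unadjusted threshold it passed 13.8%. It called 116 (0.304%, and 7.92% unadjusted) without DS+Y-S replicate 1, and 82 genes were in both sets, which is 17.6% of the 466 and 70.7% of the 116. Of the 466, DS+Y-S replicate 1 was the highest of all 21 libraries in 124, or 26.6%. Over all genes tested it was the highest in 12.6%. It was at 0 counts in 54 of the 466 (11.6%), against 29.1% of all genes tested. The calls used this library, so these shares describe the 466 and test nothing. With no low-count filter edgeR called 1612 of 97456 genes (1.65%), and 11% passed unadjusted. The part of these 2 libraries' sparse or divergent counts in the calls was not tested.

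The size of the difference was modest for most genes beside its error. The median absolute log2 difference between DS+Y-L and DS+Y-S was 0.58. The median standard error (SE) of a log2 difference, derived from the F statistic of the edgeR test, was 0.77. A log2 difference of at least 1 was fitted for 4895 genes in the higher and 6615 in the lower direction. Without DS+Y-S replicate 1 these numbers were 3875 and 5435, and the median absolute log2 difference was 0.48. In 1567 genes (4.1%) each DS+Y-L library exceeded each DS+Y-S library, and in 1610 (4.21%) each was under them, 8.31% of the genes tested in all. With DS+Y-S replicate 1 left out this became 15.8%, and with DS+Y-L replicate 3 left out 25.5%, where fewer libraries have to be separated. Between the single treatments the corresponding shares were 13.5% for DS-L against DS-S and 8.26% for Y-L against Y-S. If labels were exchangeable, 3 libraries would lie apart from 3 in a share of 0.1 of genes, barring ties. Of the shares from 3 against 3 libraries, only the 13.5% of DS was above it. That level is higher where a library is left out, and it was not computed there. The 15.8% and 25.5% can therefore not be set against 0.1 or against the 8.31%, and the rise does not show clearer separation. Within groups, the median standard deviation (SD) of log2 CPM was 0.644 in DS+Y-L and 0.983 in DS+Y-S. In the other 5 groups it ran from 0.503 to 0.579. DS+Y-S without replicate 1 had 0.504, but an SD from 2 libraries tends to come out lower than one from 3. The 0.504 therefore cannot be set directly against the other groups.

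The 4 identifiers followed in every library were the 2 of smallest p in each direction, out of genes with non-overlapping groups and a mean of 5 CPM or more in the group where they were higher. In each direction this pool was large, with 756 genes higher and 754 lower in DS+Y-L. The identifiers were chosen on this same difference, so their values describe it and do not test it. No role can be given to any of them, and an assembled gene may share reads with a close copy or an allelic variant.

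TRINITY_DN45062_c0_g1 had 333, 428 and 1.21 CPM in the DS+Y-L libraries, against 0, 0.30 and 0.31 CPM in the DS+Y-S libraries. As counts these are 4797, 7870 and 24 in DS+Y-L, and 0, 5 and 5 in DS+Y-S. The high level was therefore a property of DS+Y-L replicates 1 and 2, while replicate 3, far under both, was above all other libraries. The highest of the 15 libraries outside the comparison had 10 counts, or 0.728 CPM. The fitted difference was 10.30 on the log2 scale, with an SE of 1.69 and an edgeR adjusted p of 0.168, and it depends on the few counts in DS+Y-S. It was 9.68 with an SE of 1.94 when DS+Y-S replicate 1 was omitted.

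TRINITY_DN33536_c0_g1 had 320, 259 and 28.5 CPM in DS+Y-L, against 14, 15.9 and 13.3 CPM in DS+Y-S. All 3 DS+Y-L libraries were above all 3 DS+Y-S libraries, although Y-L replicate 2, with 88.1 CPM, was above DS+Y-L replicate 3. The log2 difference was 3.81 with an SE of 0.67 (edgeR adjusted p = 0.168), and it was 3.81 with an SE of 0.81 without DS+Y-S replicate 1. Among single treatments the gene averaged 47.8 ± 35.0 CPM in Y-L and 17.5 ± 8.81 CPM in Y-S, and 20.9 ± 5.51 CPM in DS-L and 17.4 ± 2.86 CPM in DS-S (SD, n = 3 each). Its level in ck was 15.3 ± 3.67 CPM (SD, n = 3). The L to S difference in Y had the same sign, at 1.45 on the log2 scale with an SE of 0.61 (edgeR adjusted p = 1).

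TRINITY_DN53712_c0_g1 was low in DS+Y-L, with 0.625, 0.109 and 1.46 CPM, against 7.53, 11.1 and 11 CPM in DS+Y-S. Here the 3 DS+Y-L libraries were also below each of the other 15, which ran from 1.57 to 18.0 CPM. The log2 difference was -3.73 with an SE of 0.73 (edgeR adjusted p = 0.238), and it was -3.86 with an SE of 0.76 without DS+Y-S replicate 1. The gene averaged 4.85 ± 0.904 CPM in Y-L and 13.1 ± 4.71 CPM in Y-S (SD, n = 3 each). The log2 difference there was -1.43 with an SE of 0.65 (edgeR adjusted p = 1), with every Y-L library below every Y-S library. In DS the means were close, at 3.94 ± 2.58 CPM in DS-L and 3.72 ± 1.73 CPM in DS-S, and ck averaged 4.37 ± 2.69 CPM (SD, n = 3 each).

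TRINITY_DN5054_c0_g1 had 0.417, 0.435 and 1.31 CPM in DS+Y-L, against 100, 22.2 and 4.0 CPM in DS+Y-S. The DS+Y-S libraries were far apart, with replicate 1 the highest of all 21 libraries. The log2 difference of -5.84, with an SE of 1.15 (edgeR adjusted p = 0.248), became -4.09 with an SE of 0.99 without that library. The other 15 libraries ran from 1.80 to 78.3 CPM, so that the 3 DS+Y-L libraries were the lowest of the 21.

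**Figure D2:**
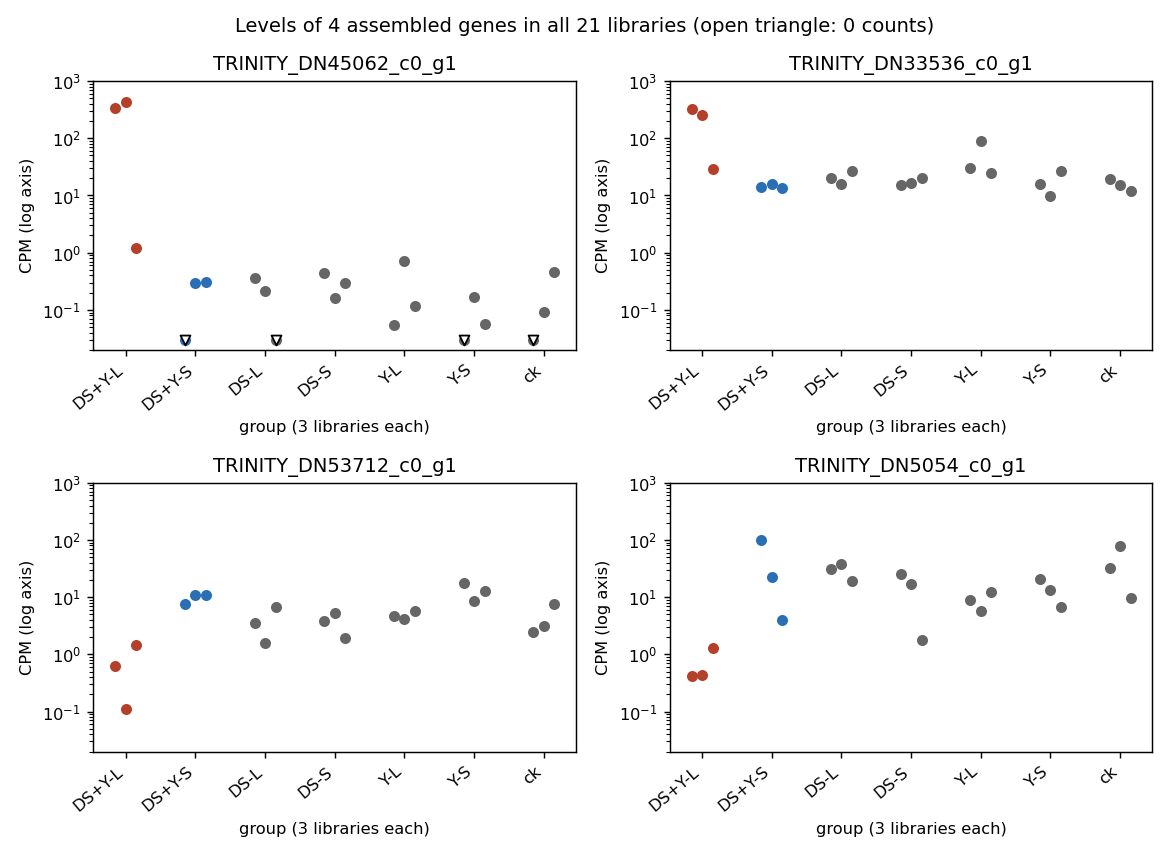
CPM on a log axis of 4 assembled genes in all 21 libraries, 1 point per library, with DS+Y-L in red, DS+Y-S in blue, and the other 5 groups in grey (open triangle: 0 counts, drawn at the foot of the axis). For TRINITY_DN45062_c0_g1 only DS+Y-L replicates 1 and 2 are high, at 333 and 428 CPM, while for both lower genes all 3 DS+Y-L libraries lie under the rest.

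The 4 identifiers passed the edgeR threshold once DS+Y-L replicate 3 was left out, with adjusted p of 0.000446 for TRINITY_DN45062_c0_g1, 0.000779 for TRINITY_DN33536_c0_g1, 0.0135 for TRINITY_DN53712_c0_g1 and 0.0454 for TRINITY_DN5054_c0_g1. With DS+Y-S replicate 1 left out instead, none passed, with edgeR adjusted p of 0.484, 0.573, 0.484 and 0.617 in the same order. Having been chosen on this same difference, the identifiers are not tested anew by either fit.

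DS+Y-L replicate 3 was not used in choosing the 223 genes called without it, so its own level there could be read against the 15 libraries outside the comparison. In DS+Y-L replicates 1 and 2, used in the choice, all 223 genes lay on the called side of the mean of those 15 libraries. In replicate 3 this held for 115 genes, or 51.6%. The median log2 departure from that mean, signed by the called direction, was 2.51 and 2.59 in replicates 1 and 2 and 0.03 in replicate 3. In the DS+Y-S libraries it was -0.31, -0.10 and 0.33. Over these genes DS+Y-L replicate 3 therefore stood near the level of single treatments and ck, and inside the range of the DS+Y-S libraries. Over all genes tested its median absolute log2 departure from the 15 libraries was 0.392, against 0.739 and 0.736 in DS+Y-L replicates 1 and 2, and 0.386 and 0.605 in DS+Y-S replicates 2 and 3. DS+Y-S replicate 1 had 1.17.

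Differences by level were examined next, with genes placed by their mean CPM in the 15 libraries outside the comparison. The median absolute log2 difference was 0.95 for the 13460 genes under 1 CPM, 0.63 for 8812 genes from 1 to 5 CPM, 0.43 for 6565 genes from 5 to 20 CPM, 0.34 for 7333 genes from 20 to 100 CPM and 0.43 for 2041 genes at 100 CPM or more. The share past an unadjusted p under 0.05 was nearly flat over these classes, from 9.56% to 12.4%, and it was 5.36% to 7.60% without DS+Y-S replicate 1. Without DS+Y-L replicate 3 the share ran with level, at 11%, 15%, 20.6%, 22.8% and 26.6%. The size of the difference did not run that way: without DS+Y-L replicate 3 the median absolute log2 difference was 1.14 under 1 CPM and 0.60 at 100 CPM or more. The median standard error beside these was 1.32 and 0.48, so the classes also differed in precision. In the class from 1 to 5 CPM the median SD of log2 CPM within DS+Y-S was 1.22 with replicate 1 and 0.566 without it. The second value comes from 2 libraries, where an SD tends to come out lower, so the values are not directly comparable.

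**Figure D3:**
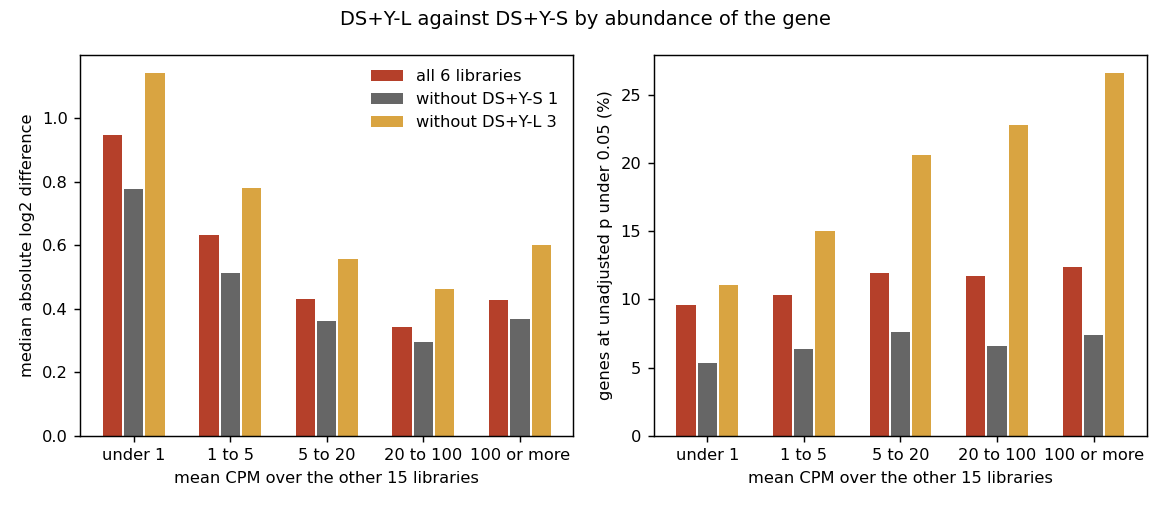
Median absolute log2 difference of DS+Y-L from DS+Y-S (left) and share of genes at an unadjusted p under 0.05 in percent (right), by mean CPM of the gene over the other 15 libraries, from all 6 libraries and with 1 library left out. Bars without DS+Y-L replicate 3 climb with level to 26.6% in the right panel, while bars from all 6 libraries stay between 9.56% and 12.4%.

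The most abundant transcripts of ck leaves were followed as a group. The 100 genes with the highest share of ck counts took 9.72%, 7.53% and 13.5% of all counts in the DS+Y-L libraries, against 15.2%, 16.4% and 11.4% in the DS+Y-S libraries. The means were 10.3 ± 3.04% in DS+Y-L and 14.3 ± 2.62% in DS+Y-S (SD, n = 3 each), and the groups overlapped through DS+Y-L replicate 3 and DS+Y-S replicate 3. An exact two-sided permutation test gave p = 0.2, where 3 libraries against 3 cannot go below 0.1. Without DS+Y-S replicate 1 the mean of DS+Y-S was 13.9 ± 3.55% (exact permutation p = 0.4). In the other 15 libraries the share ran from 10.4% to 24.7%, so DS+Y-L replicates 1 and 2 were the 2 lowest of the 21. Gene by gene, 79 of the 100 genes of highest mean CPM in ck had a lower fitted level in DS+Y-L and 21 a higher one. Their median log2 difference was -0.93, -0.85 on omitting DS+Y-S replicate 1 and -1.55 on omitting DS+Y-L replicate 3, against 0.02 over all genes tested. Past an unadjusted p under 0.05 were 30 lower genes and 1 higher gene of the 100, against 6.49% lower and 4.22% higher over all genes tested. Without DS+Y-S replicate 1 there were 17 lower and 0 higher, against 6.32% of all genes tested in either direction.

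Whether the L to S difference of the combined label resembled that of the single treatments could be read across genes, because DS+Y-L against DS+Y-S shares no library with Y-L against Y-S or with DS-L against DS-S. The 9374 genes of at least 20 CPM were used first, where counting error is small. Across them the difference in DS+Y correlated with that in Y at r = 0.428 (Spearman's rho 0.397), and with that in DS at r = 0.25 (rho 0.21). The single treatments correlated with each other at r = 0.241. The sign was shared with Y in 65.0% of genes and with DS in 58.4%. Without DS+Y-S replicate 1 the correlations were 0.389 with Y and 0.278 with DS, and without DS+Y-L replicate 3 they were 0.368 and 0.237. Over all 38211 genes they were 0.256 with Y and 0.137 with DS. Genes are not independent replicates and all libraries share an assembly and a normalization, so these are descriptions.

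Ranked by the L to S difference in Y, the lowest decile of these genes, 938 in number, had a median log2 difference of -0.66 between DS+Y-L and DS+Y-S, with quartiles of -1.30 and -0.14, and 17.5% were above 0. The highest decile had a median of 0.37, with quartiles of -0.00214 and 0.744, and 74.6% were above 0. The medians of the 10 deciles were in ascending order. Ranked by the difference in DS, the lowest decile had a median of -0.43 and the highest 0.17, with 28.8% and 59.9% above 0, and the medians levelled off from the seventh decile. The lowest deciles stood further from 0 than the highest in both rankings. Without DS+Y-S replicate 1 the outer medians were -0.55 and 0.28 by Y, and -0.45 and 0.19 by DS.

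**Figure D4:**
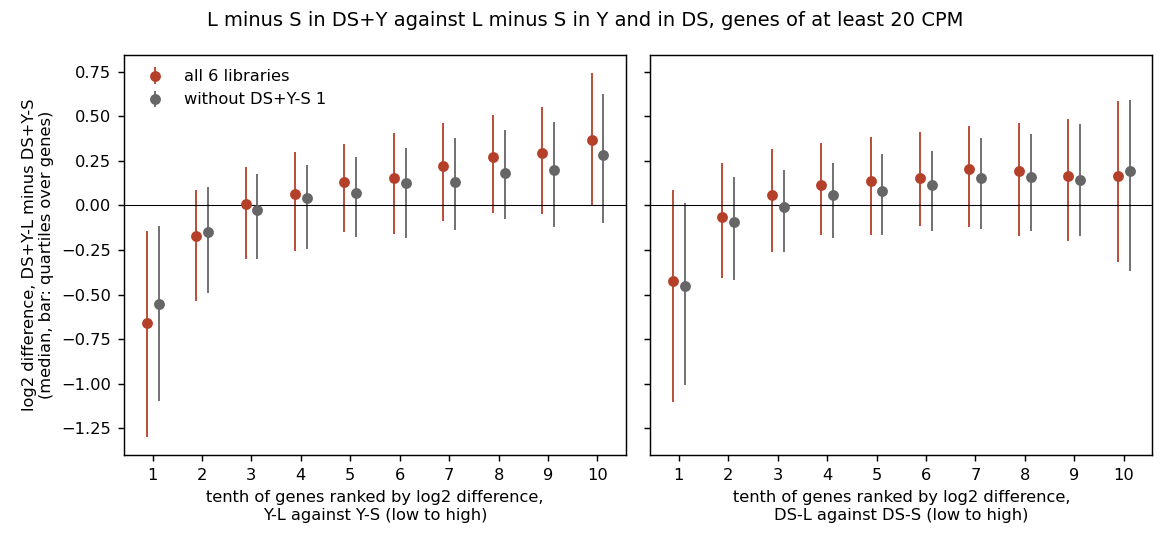
Log2 difference of DS+Y-L from DS+Y-S in deciles of the 9374 genes of at least 20 CPM, ranked from low to high by the L to S difference in Y (left) or in DS (right); points are medians and bars quartiles over genes, with all 6 libraries in red and without DS+Y-S replicate 1 in grey. By Y the red medians climb from -0.66 to 0.37, and by DS from -0.43 to 0.17.

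Lists of 200 genes ranked on the 15 libraries outside the comparison described the same relation in each library. They were chosen by p within that separate fit, in which no DS+Y library took part. For all genes tested 50.9% had a fitted log2 difference above 0 between DS+Y-L and DS+Y-S. At an unadjusted p under 0.05, 4.22% of all genes tested were higher and 6.49% lower in DS+Y-L. Of the 200 genes lower in Y-L than in Y-S, 153 were also lower in DS+Y-L than in DS+Y-S, with a median log2 difference of -0.98, and 70 of these were lower at an unadjusted p under 0.05 (35.0% of the list) with 2 higher. Centred on each gene's mean over the 6 libraries, the list's median log2 level was -0.43, -0.61 and -0.13 in the DS+Y-L libraries, and 0.33, 0.93 and -0.05 in the DS+Y-S libraries. The 2 groups did not overlap, with DS+Y-L replicate 3 and DS+Y-S replicate 3 next to each other. Of the 200 genes higher in Y-L than in Y-S, 155 were higher in DS+Y-L, with a median of 0.44, and 47 of them were higher at an unadjusted p under 0.05 (23.5%) with 1 lower. Its centred levels were 0.51, 0.10 and 0.21 in DS+Y-L, and -0.67, -0.27 and -0.02 in DS+Y-S. Over all genes tested the same median was -0.44 in DS+Y-S replicate 1 and between 0.03 and 0.20 in the other 5 libraries. Without DS+Y-S replicate 1 the 2 lists had medians of -0.88 and 0.45, with 59 of the first lower and 30 of the second higher at an unadjusted p under 0.05. In that fit 6.32% of all genes tested passed in either direction. The second list had a median of 0.75 without DS+Y-S replicate 3.

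The corresponding lists of DS differed less. Of the 200 genes lower in DS-L than in DS-S, 138 were lower in DS+Y-L than in DS+Y-S, at a median log2 difference of -0.50, and of the 200 higher in DS-L than in DS-S, 126 were higher, at a median of 0.23. Both lists overlapped between the groups of libraries. Omitting DS+Y-S replicate 1 gave medians of -0.58 and 0.37. The list of lower genes had -1.20 when DS+Y-L replicate 3 was omitted, -0.29 for replicate 2 of that group and -0.27 for DS+Y-S replicate 2. The list of higher genes had -0.01 when DS+Y-L replicate 2 was omitted and 0.37 when DS+Y-S replicate 2 was.

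Genes ranked on a treatment against ck showed how far the suffixes of the combined label followed the single treatments. The 200 genes lower in Y-L than in ck had a median log2 difference of -0.82 between DS+Y-L and DS+Y-S, with 163 of 200 below 0, and the 200 higher in Y-L than in ck a median of 0.41, with 143 of 200 above 0. These medians became -0.56 and 0.26 when DS+Y-S replicate 1 was omitted, and -1.07 and 0.08 when DS+Y-L replicate 3 was. The 200 genes lower in DS-L than in ck had a median of -0.92, with 147 of 200 below 0. Omitting 1 library made it -0.87 for DS+Y-S replicate 1, -1.40 for DS+Y-L replicate 3 and -0.59 for DS+Y-S replicate 2. Those higher in DS-L than in ck had a median of 0.24, which became 0.18 on omitting DS+Y-S replicate 1, -0.41 on omitting DS+Y-L replicate 3 and 0.62 on omitting DS+Y-S replicate 2. The lists ranked on the S suffix differed little by their medians, which were 0.22 for genes higher and -0.18 for genes lower in DS-S than in ck, and 0.24 for genes higher and 0.00 for genes lower in Y-S than in ck. The medians of the lists higher in DS-S and higher in Y-S were 0.02 and 0.11 on omitting DS+Y-S replicate 1, and -1.20 and -0.46 on omitting DS+Y-L replicate 3. The list lower in DS-S had -0.18 on omitting DS+Y-S replicate 1 and 0.19 on omitting DS+Y-S replicate 3. These lists share the ck libraries and part of their genes with each other, and 60 genes are on both lists of lower genes of Y-L.

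The 200 steadiest genes of the other 15 libraries were followed as a reference for the other lists. Their median log2 difference was 0.18, with 158 of 200 above 0, and their centred levels were 0.15, 0.11 and 0.06 in DS+Y-L, and -0.24, -0.10 and 0.06 in DS+Y-S. The median was 0.14 with DS+Y-S replicate 1 left out and 0.31 with DS+Y-S replicate 3 left out. The groups did not overlap, with almost no margin between DS+Y-L replicate 3 and DS+Y-S replicate 3. These genes thus stood at 0.18 in favour of DS+Y-L, to be set beside the 0.44 of the genes higher in Y-L than in Y-S. Their median level in ck was 44.1 CPM. All 7333 genes from 20 to 100 CPM had a median log2 difference of 0.10, with 58.8% above 0. Whether the scaling produced this offset was not tested.

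**Figure D5:**
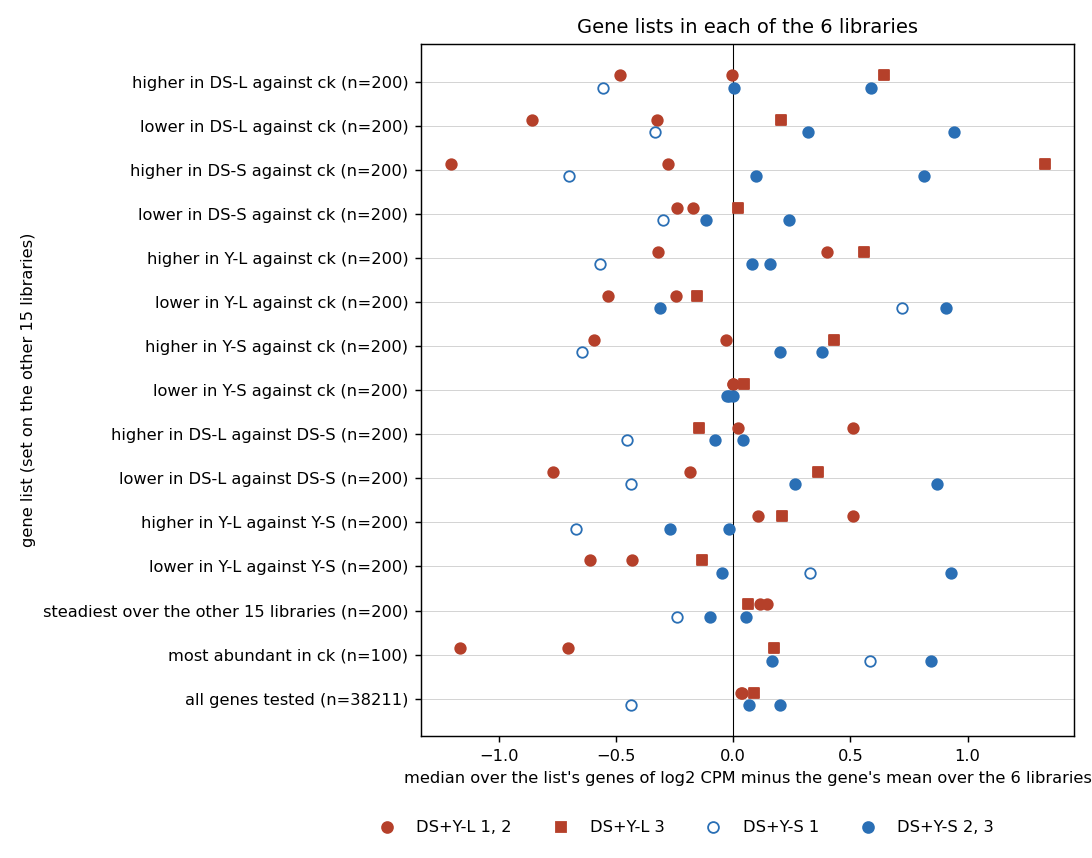
Median over each list of log2 CPM minus the gene's mean over the 6 libraries, with 1 point per library, DS+Y-L above DS+Y-S in each row, the square for DS+Y-L replicate 3 and the open circle for DS+Y-S replicate 1. The lists of genes lower and higher in Y-L than in Y-S separate the groups, with DS+Y-L from -0.61 to -0.13 in the first and 0.10 to 0.51 in the second, while most other lists overlap.

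The difference between treatments was tested directly. L minus S in DS+Y less L minus S in DS gave 0 calls in edgeR (0%), with 2150 genes (5.63%) at an unadjusted p under 0.05 and a median standard error of 1.07. L minus S in DS+Y less L minus S in Y gave 0 (0%), with 1307 (3.42%) unadjusted. By DESeq2 the calls in the departure from DS and from Y were 46 and 5, and by edgeR without DS+Y-L replicate 3 they were 15 and 5. For the single treatments, which also had 0 calls, the unadjusted counts were 1755 (4.59%) in DS and 1139 (2.98%) in Y, beside the 10.7% of DS+Y-L against DS+Y-S. This order depends on the fit. In edgeR without DS+Y-S replicate 1 the unadjusted shares were 6.32% in DS+Y, 6.51% in DS and 4.37% in Y. DESeq2 called 91 genes in DS (0.238%, and 6.18% unadjusted) and 15 in Y (0.0393%, and 4.16% unadjusted), beside 466 in DS+Y. limma voom with library weights put DS+Y last, with 0 calls in DS+Y (0%), 4094 in DS (10.7%) and 0 in Y (0%), and unadjusted shares of 7.01% in DS+Y, 27.6% in DS and 14.8% in Y. For the identifiers named above, the departure from the difference in DS was 10.86 (SE 2.19) for TRINITY_DN45062_c0_g1, 3.55 (SE 0.87) for TRINITY_DN33536_c0_g1, -3.81 (SE 0.95) for TRINITY_DN53712_c0_g1 and -6.85 (SE 1.45) for TRINITY_DN5054_c0_g1 on the log2 scale, each with edgeR adjusted p = 0.871. The departure from the difference in Y was smaller for each, at 8.48 (SE 3.17) for TRINITY_DN45062_c0_g1, 2.36 (SE 0.86) for TRINITY_DN33536_c0_g1, -2.31 (SE 0.93) for TRINITY_DN53712_c0_g1 and -5.24 (SE 1.41) for TRINITY_DN5054_c0_g1, each with edgeR adjusted p = 0.99995.

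Among genes whose 3 libraries did not overlap, those with all L above all S in the combined label numbered 1567. Over all genes tested, DS-L lay above DS-S in 5.4% and below in 8.07%, and Y-L lay above Y-S in 3.71% and below in 4.55%. Of the 1567, 136 (8.68%) were also above in DS and 75 (4.79%) were below there. In Y 154 (9.83%) were also above and 45 (2.87%) below. Of the 1610 genes with all L below all S, 182 (11.3%) were also below in DS and 46 (2.86%) above there. In Y 123 (7.64%) were also below and 24 (1.49%) above. As shares of the single-treatment lists, the genes above in both were 6.6% of the DS list and 10.9% of the Y list. Of all genes tested, 4.1% were above in DS+Y. The genes below in both were 5.9% of the DS list and 7.07% of the Y list, against 4.21% of all genes tested. Of the 38211 genes tested, 16 had L above S and 21 had L below S in all 3 treatments. No expected number was computed for these, so they are counts only.

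Switch-like genes were rare. With at least 10 counts in each library of one group and 0 counts in every library of the other, 1 of the 97500 genes was counted in DS+Y-L and not in DS+Y-S, and 1 in DS+Y-S and not in DS+Y-L. Against DS+Y-S replicates 2 and 3 alone the numbers were 1 and 6. For counting error only, 0 counts allow up to 0.174 CPM in the shallowest DS+Y-S library and 0.171 CPM in the shallowest DS+Y-L library. These limits use the plain library total without TMM scaling, so their scale differs from that of the CPM given elsewhere. The shallowest DS+Y-S library is replicate 1, where 33.5% of genes predicted to have 20 to 40 counts were at 0. A 0 in that library therefore does not bound the level at 0.174 CPM. All of the switch-like genes had counts in at least 1 of the other 15 libraries.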

How the data were processed

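The authors deposited 1 table holding a whole-number count and an FPKM for every assembled gene in every library, per the file headers. Which assembler, aligner, counting program and filters were used could not be read from the labels. The deposited FPKM entered only the effective lengths. Groups came from the sample titles. The lists, rules and comparisons were chosen with earlier results of these data known.

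The main test was edgeR 4.0.16 under R 4.3.3: filterByExpr by group kept 38211 of 97500 genes, libraries were scaled by TMM, and 1 quasi-likelihood fit covered all 21 libraries in 7 groups, with Benjamini-Hochberg adjustment over all genes at 0.05. CPM are TMM-scaled, and log2 CPM used a prior count of 2. The SE given with edgeR values is the absolute log2 difference divided by the square root of the F statistic. It is therefore approximate, and unstable for differences near 0. Single values per library were compared by exact permutation. Lists of 200 genes came from a separate edgeR fit to the 15 libraries of ck, DS and Y, or from the SD of log2 CPM among genes averaging 5 CPM or more. Named identifiers were the 2 of smallest p in each direction among non-overlapping genes whose higher group averaged 5 CPM or more. Chi-square per degree of freedom within groups ran from 62.0 to 175, above sampling noise for each pair of libraries. The fit was tested on simulated counts. Alternatives were DESeq2 1.42.0, limma 3.58.1 voom with library weights, other size factors, no filter, the 6 libraries alone, a replicate block and leaving out libraries.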

Additional observations from a re-analysis of the deposited data

How the results depend on the processing

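The calls for DS+Y-L against DS+Y-S stayed at 0 in edgeR with DESeq2 size factors, with the replicate block, in the 6 libraries alone, in genes of at least 20 CPM and in limma voom. They were 466 in DESeq2, 1612 in edgeR without a low-count filter, and 0 to 223 with 1 library left out. Chosen after the data were seen, DESeq2 without DS+Y-S replicate 1 called 116, and edgeR without DS+Y-S replicate 1 and DS+Y-L replicate 3 called 80. Of the 1612, 1432 (88.8%) were also among the genes of the main test, which called none of them. Counts were present in all 6 libraries for 928 of the 1612, and in DS+Y-S replicate 1 alone among the 6 for 58. The 4090 genes at an unadjusted p under 0.05 became 2398 to 7059 with 1 library left out (leaving out DS+Y-L replicates 1, 2 and 3 in turn gave 2398, 2552 and 6373, and DS+Y-S replicates 1, 2 and 3 gave 2416, 4969 and 7059), 2600 without DS+Y-S replicate 1 and the filter applied again, 10739 without a filter, 2678 in limma voom, 1454 in the 6 libraries alone and 1223 there without DS+Y-S replicate 1. They were 1182 among genes of at least 20 CPM, and 672 there without DS+Y-S replicate 1, where fewer genes were tested. The median absolute log2 difference ran from 0.48 to 0.79 with 1 library left out.

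For L minus S in DS+Y less that in DS, calls were 46 in DESeq2, 23 in DESeq2 without DS+Y-S replicate 1, 708 without a filter, 0 to 15 with 1 library left out, and 1 without DS+Y-S replicate 1 and DS+Y-L replicate 3. For the departure from Y they were 5, 4, 410, 0 to 5, and 2.

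List medians with 1 library left out ran from -0.41 to 0.62 for genes higher in DS-L than ck, -1.40 to -0.59 for lower in DS-L, 0.08 to 0.60 for higher in Y-L, -1.07 to -0.56 for lower in Y-L, -1.20 to 0.61 for higher in DS-S, -0.43 to 0.19 for lower in DS-S, -0.46 to 0.48 for higher in Y-S, -1.20 to -0.27 for lower in DS-L than DS-S, 0.35 to 0.75 for higher in Y-L than Y-S, 0.14 to 0.31 for the steadiest and -1.55 to -0.70 for the most abundant in ck. The median of genes lower in Y-S than ck was -0.12 with 100 genes and 0.11 with the replicate block. The share of the 100 most abundant genes of ck differed by -5.70 to -2.70 percentage points with 1 library left out. The causes were not tested.

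No sign of pairing by replicate number was seen, since deviations of same-numbered libraries correlated at -0.190, -0.216 and -0.247. Deviations from a mean of 3 libraries sum to 0, so these values cannot exclude a pairing, and the labels state none. With the replicate block 3416 genes passed the unadjusted threshold, and 1943 without DS+Y-S replicate 1. With 3 libraries a group and a coefficient of variation of 0.619 between libraries, the median standard error of a log2 difference was 1.17 under 1 CPM and 0.35 from 20 to 100 CPM. No detection limit was computed.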

Other observations

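Effective length, derived from counts and FPKM, was available for all 38211 genes tested. The share of genes at an unadjusted p under 0.05 was 9.49% for 11934 genes under 500 bases, 10.6% for 10953 from 500 to 1000, 12.1% for 10981 from 1000 to 2000, 11.4% for 3091 from 2000 to 3000 and 9.27% for 1252 longer genes, with median log2 differences from -0.04 to 0.03. In 3455 assembly components with exactly 2 tested genes, both genes had a log2 difference of the same sign in 55.0%.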
